A study of Zea mays with 21 samples.

Results

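Expression of 2 hormone synthesis genes was followed in the primary root tips of maize seedlings under waterlogging stress (WS): Zm00001d018819, nine-cis-epoxycarotenoid dioxygenase 5 (NCED5), and Zm00001d026060, an ACC synthase. Both genes were chosen by name and not by a measured value, as the 2 entries carrying these IDs among the 23175 protein-coding genes (PCgenes) with deposited values. Seedlings of the inbred line B73 were grown in a greenhouse and, at the second leaf stage, a layer of water was kept above the substrate, starting in the morning. The groups were WS_0h, sampled before treatment as the control, and WS_2h, WS_4h, WS_6h, WS_8h, WS_10h and WS_12h, named by the hours of waterlogging, with 3 libraries at each of the 7 time points and 21 in all. All libraries came from the same genotype without any transgene, and each was made from 10 root tips mixed before RNA extraction. No plants kept out of water were sampled at the later hours, so hours of waterlogging and hours of the day cannot be told apart. The labels name the tissue only as root, and this could not be checked against root marker genes because the gene IDs of the files are not annotated in the table at hand.

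NCED enzymes cleave 9-cis-epoxycarotenoids in plastids and produce xanthoxin, the step that usually limits the synthesis of abscisic acid (ABA), a hormone of drought responses, stomatal closure and dormancy. ACC synthase turns S-adenosylmethionine into 1-aminocyclopropane-1-carboxylic acid (ACC), and ACC oxidase turns ACC into ethylene with the use of oxygen. Ethylene is a gas that is trapped in flooded tissue, and in maize roots it is known for promoting aerenchyma, the air spaces formed by the death of cortical cells. Neither hormone was measured here: the values are transcript levels.

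Levels are given as TPM, in which the reads of a gene are divided by its length and scaled to the library, so that levels of different genes can be set beside each other. Tests were run on log2(TPM + 1), a scale that understates the change of low genes, with limma over the 22783 PCgenes whose mean exceeded 1 TPM, both genes among them. To be called, a gene needed a log2 difference above 1 in size together with an adjusted p (Benjamini-Hochberg) under 0.05. Over all 21 libraries the mean was 1.74 TPM for NCED5, higher than in 10.9% of the listed PCgenes, and 15.1 TPM for the ACC synthase, higher than in 69.7% of them. A TPM does not carry the read depth of its library, and the study's read totals were not used here, so the precision of each value rests on 3 libraries. The study named both genes with results of these same libraries known, so the tests below are no independent evidence of their direction.

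The libraries of each time point resembled each other, with a mean Pearson r of 0.951 to 0.986 with their own time point, but the 3 WS_4h libraries stood apart, with a mean r of 0.558 to 0.649 with WS_0h. At WS_4h, 19.3% of all PCgenes were called higher here and 23.7% lower than at WS_0h, far more than at any other time point. The study's own test of these libraries listed fewer changed PCgenes at WS_4h than at WS_6h. Why the order differs was not tested. The TPM of the listed PCgenes summed to between 534645 and 575678 in WS_0h, WS_4h and WS_8h replicate 1, and to between 576959 and 689689 in the other 14 libraries. Both genes were therefore also tested without the WS_4h libraries and after rescaling all libraries to the same listed total.

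NCED5 was highest before waterlogging and fell. At WS_0h its 3 libraries held 2.12, 6.65 and 8.37 TPM, a mean of 5.71 ± 3.23 (SD, n = 3), and at WS_2h they held 0.99, 4.12 and 2.35 TPM, a mean of 2.49 ± 1.57. These 2 time points overlapped, and replicate 1 was the lowest library in both. At WS_4h the level was 0.07, 0.16 and 0.32 TPM, a mean of 0.183 ± 0.127, so that all 3 libraries were below every library of WS_0h and WS_2h.

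After WS_4h the NCED5 transcript stayed low without returning to its starting level. The WS_6h libraries held 1.51, 1.80 and 0.98 TPM (mean 1.43 ± 0.416), and the WS_8h libraries 0.09, 0.24 and 0.87 TPM (mean 0.4 ± 0.414). At WS_10h the values were 0.92, 1.27 and 0.64 TPM (mean 0.943 ± 0.316), and at WS_12h 0.77, 1.57 and 0.81 TPM (mean 1.05 ± 0.451). From WS_4h on, all 15 libraries, between 0.07 and 1.8 TPM, lay below all 3 libraries of WS_0h. Among the listed PCgenes, the mean of NCED5 passed 42.5% of genes at WS_0h, 0.457% at WS_4h and 6.85% at WS_12h.

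**Figure D1:**
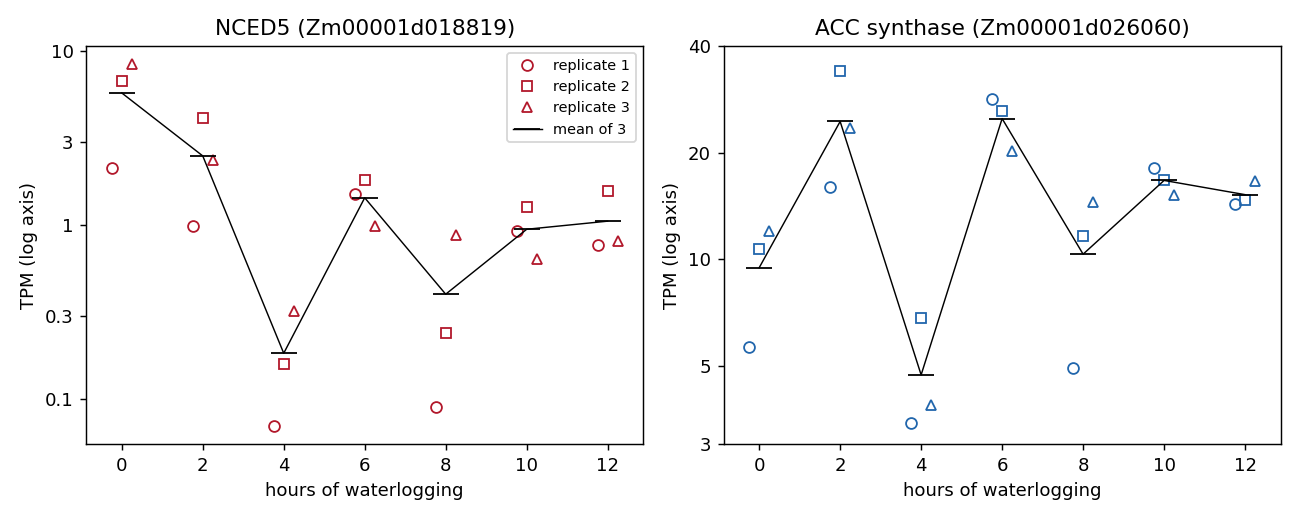
TPM of NCED5 (Zm00001d018819) and of the ACC synthase (Zm00001d026060) against hours of waterlogging, on log axes. Each symbol is 1 library and the bar is the mean of 3; NCED5 stays below its WS_0h libraries from 4 h on, whereas the ACC synthase is high at 2 h and 6 h and low at 4 h.

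Against WS_0h, NCED5 was called lower at 5 of the 6 later time points. On the log2(TPM + 1) scale it fell by 2.36 at WS_4h (SE 0.35, adjusted p = 9.34e-06), where the ratio of the mean TPM was 31.2-fold. At WS_6h the difference was -1.34 (adjusted p = 0.00578), and of all PCgenes 23.7% were called lower at WS_4h and 6.97% at WS_6h. It was -2.16 at WS_8h (adjusted p = 0.000217), -1.66 at WS_10h (adjusted p = 0.00128) and -1.59 at WS_12h (adjusted p = 0.00177), where 3.79%, 5.94% and 5.78% of PCgenes were called lower. Of the 22783 PCgenes, 1209 had a lower log2 difference than NCED5 at WS_4h and 72 did at WS_8h, the other called time points lying between, with 442 to 797. Since its levels were near or under 1 TPM, the size of its difference depended on the pseudocount: with 0.1 in place of 1 TPM it was -4.25 at WS_4h and -3.66 at WS_8h.

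The first 2 h were not enough for a call. The log2 difference of NCED5 at WS_2h was -0.90 (SE 0.35, adjusted p = 0.136), where 1.15% of PCgenes were called lower. It rested on single libraries: without WS_0h replicate 1 it was -1.38 (adjusted p = 0.00848) and without WS_2h replicate 2 it was -1.23 (adjusted p = 0.0475), both past the threshold. The 5 later calls held without any 1 library of the time points compared.

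Between successive time points, NCED5 fell from WS_2h to WS_4h by 1.46 (SE 0.35, adjusted p = 0.00122), a step in which 23.1% of PCgenes fell. From WS_4h to WS_6h it rose by 1.03 (adjusted p = 0.0159), beside 18.4% of PCgenes. This rise was just past the fold threshold and was no longer called without WS_4h replicate 1 (0.96), WS_6h replicate 2 (0.92) or WS_6h replicate 1, nor after rescaling to the same listed total (0.98, adjusted p = 0.0213). The later steps were -0.82 to WS_8h (adjusted p = 0.113), 0.50 to WS_10h (adjusted p = 0.516) and 0.07 to WS_12h (adjusted p = 1), and none was called. With a pseudocount of 0.1 the step to WS_8h was -1.91 (adjusted p = 0.0365), past the threshold.

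The ACC synthase moved up and down. At WS_0h its libraries held 5.66, 10.70 and 12.00 TPM, a mean of 9.45 ± 3.35 (SD, n = 3), and at WS_2h 16.02, 33.90 and 23.50 TPM, a mean of 24.5 ± 8.98, with no overlap. At WS_4h they held 3.44, 6.82 and 3.87 TPM, a mean of 4.71 ± 1.84, replicates 1 and 3 being below every WS_0h library. At WS_6h the level was back at 28.34, 26.21 and 20.26 TPM, a mean of 24.9 ± 4.19, again above all libraries of WS_0h.

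From WS_8h on the ACC synthase was closer to its control level. The WS_8h libraries spread widely, with 4.91, 11.61 and 14.46 TPM (mean 10.3 ± 4.9), replicate 1 being below and replicate 3 above all WS_0h libraries. At WS_10h the values were 18.12, 16.74 and 15.18 TPM (mean 16.7 ± 1.47), and at WS_12h 14.34, 14.66 and 16.62 TPM (mean 15.2 ± 1.23). The libraries of both time points exceeded all 3 of WS_0h, and they varied less among themselves than those of WS_2h or WS_8h did.

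Against WS_0h, the ACC synthase was called higher at WS_2h and WS_6h. Its log2 difference was 1.28 at WS_2h (SE 0.33, adjusted p = 0.0148), where 4.18% of PCgenes were called higher, and 1.36 at WS_6h (SE 0.33, adjusted p = 0.00294), where 9.09% were. In mean TPM these were 2.59-fold and 2.64-fold. The call at WS_2h was lost without WS_0h replicate 1 (0.99, adjusted p = 0.0953), without WS_2h replicate 2 (1.02, adjusted p = 0.093) and when only the libraries of WS_0h and WS_2h were fitted (1.28, adjusted p = 0.0686). The call at WS_6h held without any 1 of its 6 libraries, from 1.06 to 1.54.

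At WS_4h the ACC synthase was 0.498 times its WS_0h mean, and its log2 difference of -0.86 (SE 0.33, adjusted p = 0.024) missed the fold threshold. It passed that threshold without WS_0h replicate 1 (-1.16) or WS_4h replicate 2 (-1.11). At WS_8h the difference was 0.06 (SE 0.33, adjusted p = 0.938), and its sign turned with the library left out, from -0.23 to 0.48. At WS_10h it was 0.81 (adjusted p = 0.0647) and at WS_12h 0.69 (adjusted p = 0.111), neither of them called although the libraries did not overlap those of WS_0h.

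The ACC synthase was called in 3 of the 5 steps between later time points. From WS_2h to WS_4h it fell by 2.14 (SE 0.33, adjusted p = 1.3e-05), and from WS_4h to WS_6h it rose by 2.22 (SE 0.33, adjusted p = 1.38e-05). From WS_6h to WS_8h it fell by 1.29 (adjusted p = 0.00962), a step in which 5.36% of PCgenes fell, and without WS_8h replicate 1 this call was lost (-0.88, adjusted p = 0.0574). The 2 last steps, 0.75 to WS_10h (adjusted p = 0.209) and -0.12 to WS_12h (adjusted p = 1), were not called.

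**Figure D2:**
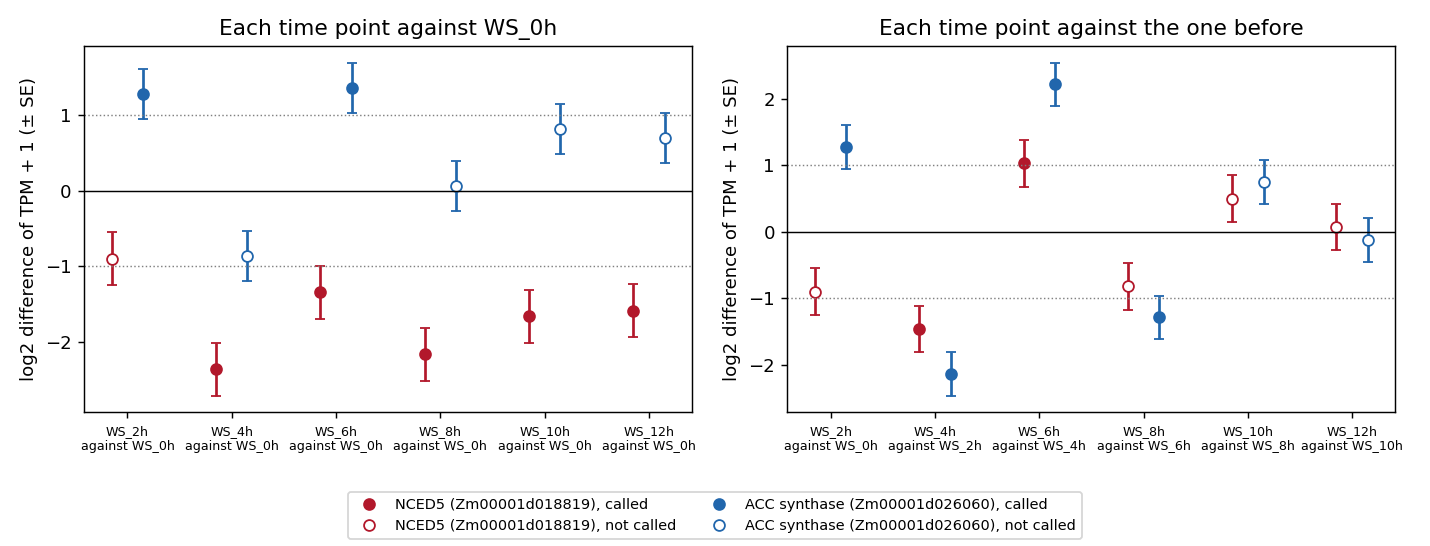
Log2 difference of TPM + 1 (± SE from limma) of NCED5 and of the ACC synthase, at left for each time point against WS_0h and at right for each time point against the one before; filled symbols are called and dotted lines mark a difference of 1. NCED5 is called lower from WS_4h to WS_12h, and the ACC synthase is called higher at WS_2h and WS_6h.

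Over all 7 time points both genes changed by the F test, NCED5 with F = 10.2 (adjusted p = 0.000129) and the ACC synthase with F = 11.8 (adjusted p = 5.52e-05), as did 82.9% of all PCgenes. Without the WS_4h libraries F was 8.04 for NCED5 (adjusted p = 0.00292) and 6.42 for the ACC synthase (adjusted p = 0.00741). In bulk root tips, fewer cells that express a gene and less of its RNA per cell cannot be told apart. The ACC synthase was at 3.44 to 12.0 TPM in the 7 libraries with the lower listed totals and at 11.61 to 33.9 TPM in the others. These 7 were the libraries of WS_0h and WS_4h with WS_8h replicate 1, so the split largely follows the time points. No gap in the totals marks it, with 575678 and 576959 on its 2 sides. After rescaling to the same listed total the ACC synthase remained called higher at WS_2h (1.10, adjusted p = 0.0253) and at WS_6h (1.17, adjusted p = 0.0053). NCED5 remained called lower at the same 5 time points, by -2.47 at WS_4h to -1.49 at WS_6h.

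Ordered by mean TPM, NCED5 ran from WS_0h through WS_2h, WS_6h, WS_12h, WS_10h and WS_8h down to WS_4h. The ACC synthase ran from WS_6h through WS_2h, WS_10h, WS_12h, WS_8h and WS_0h down to WS_4h. In both genes the libraries of every pair of neighbours in these orders overlapped, so the place of a time point beside its neighbour is not set by these data. Both orders end with WS_4h, and they differ in the place of WS_0h.

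The balance between the 2 transcripts shifted toward the ACC synthase by the first sampling and did not shift back within the libraries measured. At WS_0h the ACC synthase held 2.67, 1.61 and 1.43 times the TPM of NCED5. At WS_2h the ratio was 16.2, 8.23 and 10.0, and at WS_4h it was 49.1, 42.6 and 12.1. The divisor, NCED5, was at only 0.07 to 0.32 TPM at WS_4h and at 0.09 to 0.87 TPM at WS_8h. The size of the ratios at both is thus uncertain, that of the highest, 54.6 at WS_8h, included. All 18 later libraries, from 8.23 to 54.6, exceeded all 3 of WS_0h.

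The per-library difference of the 2 genes on the log2(TPM + 1) scale varied over the 7 time points with F = 23.8 (permutation test of the libraries, p = 0.0001). Relative to the ACC synthase, NCED5 changed from WS_0h by -2.19 at WS_2h, by -1.50 at WS_4h and by -2.69 at WS_6h, and the difference was -2.22, -2.47 and -2.28 at the 3 last samplings. Each of these had p = 0.1 in an exact two-sided permutation test of 3 against 3 libraries and 0.1 after adjustment over the 6, which is the smallest value this design allows. Where NCED5 was far under 1 TPM, the difference depended on the pseudocount. With 0.1 in place of 1 TPM it was -3.26 at WS_4h and -3.72 at WS_8h, so the order of the time points by this difference is not set. Within time points the 2 genes ranked libraries alike in 17 of 21 pairs of libraries. The libraries low in one gene were thus often low in the other, and what the libraries share besides was not tested.

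**Figure D3:**
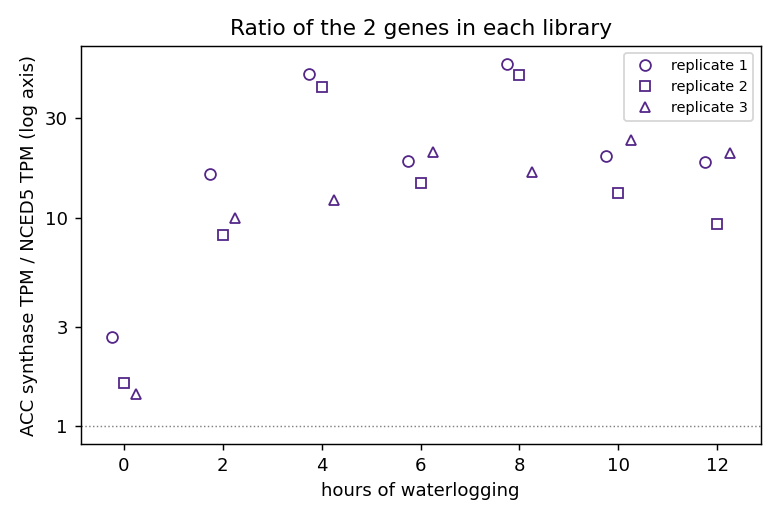
Ratio of the TPM of the ACC synthase to that of NCED5 in each library, on a log axis, against hours of waterlogging; each symbol is 1 library. The 3 libraries at 0 h lie between 1.43 and 2.67, and the 18 later ones between 8.23 and 54.6. The size of the ratios at WS_4h and WS_8h is uncertain, as NCED5 was under 1 TPM there.

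The next step of ethylene synthesis was represented by 4 ACC oxidases that the study names. Zm00001d024843 was the most abundant of them, with 12.54, 17.40 and 24.63 TPM at WS_0h, 31.54, 58.55 and 33.83 at WS_2h, 3.16, 13.78 and 5.59 at WS_4h, and 53.22, 61.52 and 40.59 at WS_6h. Its mean thus went up, down and up again at the same samplings as that of the ACC synthase. The 2 genes ranked the libraries within a time point alike in 18 of 21 pairs. This was not particular to them, as NCED5 and this ACC oxidase also did so in 18 of 21 pairs. The rise of Zm00001d024843 from WS_0h to WS_2h was not called (1.13, SE 0.57, adjusted p = 0.289). Its fall from WS_2h to WS_4h was called (-2.46, adjusted p = 0.000851), as was its rise from WS_4h to WS_6h (2.81, adjusted p = 0.000323).

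Against WS_0h, Zm00001d024843 was called lower at WS_4h (-1.33, adjusted p = 0.0436) and higher at WS_6h (1.49, adjusted p = 0.0465). Both calls were near the threshold. The first was lost without WS_0h replicate 2, WS_0h replicate 3, WS_4h replicate 1 or WS_4h replicate 3 (the differences running from -1.83 to -0.91 over the libraries left out) and after median-ratio rescaling (-1.26, adjusted p = 0.0518), and the second without any 1 of its 6 libraries (1.26 to 1.72) and at the same listed total (1.29, adjusted p = 0.0605). At WS_8h its libraries held 4.18, 19.92 and 52.01 TPM, the widest spread of any of its time points, replicate 1 being the low one as in the ACC synthase.

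The other ACC oxidases, Zm00001d024850, Zm00001d024851 and Zm00001d024852, had means of 1.46, 2.27 and 1.4 TPM over all libraries and were called at no time point. Their highest libraries were WS_8h replicate 3, at 13.99, 22.55 and 21.83 TPM, while WS_8h replicate 1 is listed at 0 for each. The 3 IDs lie close together in number, and whether the genes are similar enough to share reads could not be checked without their sequences, so their separate values are uncertain.

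Of the ethylene signalling genes, the EIN3-like transcription factors are known from Arabidopsis to act downstream of the ethylene receptors. Zm00001d016924 was at 0.04, 0.08 and 0.02 TPM at WS_0h, at 0.98, 3.36 and 4.30 TPM at WS_4h and at 6.26, 10.97 and 7.98 TPM at WS_6h. It was called higher at WS_4h (1.77, adjusted p = 3.42e-05), WS_6h (3.14, adjusted p = 1.77e-07), WS_8h (1.43, adjusted p = 0.00196), WS_10h (2.80, adjusted p = 8.16e-07) and WS_12h (2.42, adjusted p = 4.87e-06), and at WS_2h its difference was 0.53 (adjusted p = 0.37). At WS_2h its libraries held 0.37, 0.81 and 0.38 TPM, all above those of WS_0h, and with a pseudocount of 0.1 the difference was 2.03 (adjusted p = 0.00652), past the threshold. Unlike the ACC synthase, it was above its WS_0h libraries at every later sampling.

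The other EIN3-like gene, Zm00001d020939, rose at WS_4h. Its libraries went from 11.99, 20.59 and 19.38 TPM at WS_0h to 84.30, 51.11 and 75.14 TPM at WS_4h, a log2 difference of 1.96 (SE 0.28, adjusted p = 6e-06). At WS_6h the difference was 0.99 (adjusted p = 0.0098), just under the fold threshold. SAPK4 (Zm00001d012263) is a kinase of the SnRK2 family, known for osmotic signalling in rice, and the study lists it in MAPK signalling. Whether it acts in ABA signalling in these roots was not tested. SAPK4 was at 2.63, 2.61 and 2.98 TPM at WS_0h and at 13.30, 12.38 and 12.86 TPM at WS_4h, a difference of 1.89 (SE 0.14, adjusted p = 2.92e-09). At the other time points SAPK4 differed by 0.05 to 0.64 and was not called, as it missed the fold threshold. Its adjusted p was still under 0.05 at WS_6h (0.56, adjusted p = 0.00503), WS_10h (0.64, adjusted p = 0.00217) and WS_12h (0.49, adjusted p = 0.0142). At the same listed total the WS_6h difference was 0.41 (adjusted p = 0.0579). All 3 libraries of WS_2h, WS_6h, WS_10h and WS_12h lay above those of WS_0h. The sampling at which NCED5 and the ACC synthase were lowest was thus the one at which Zm00001d020939 and SAPK4 were highest.

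**Figure D4:**
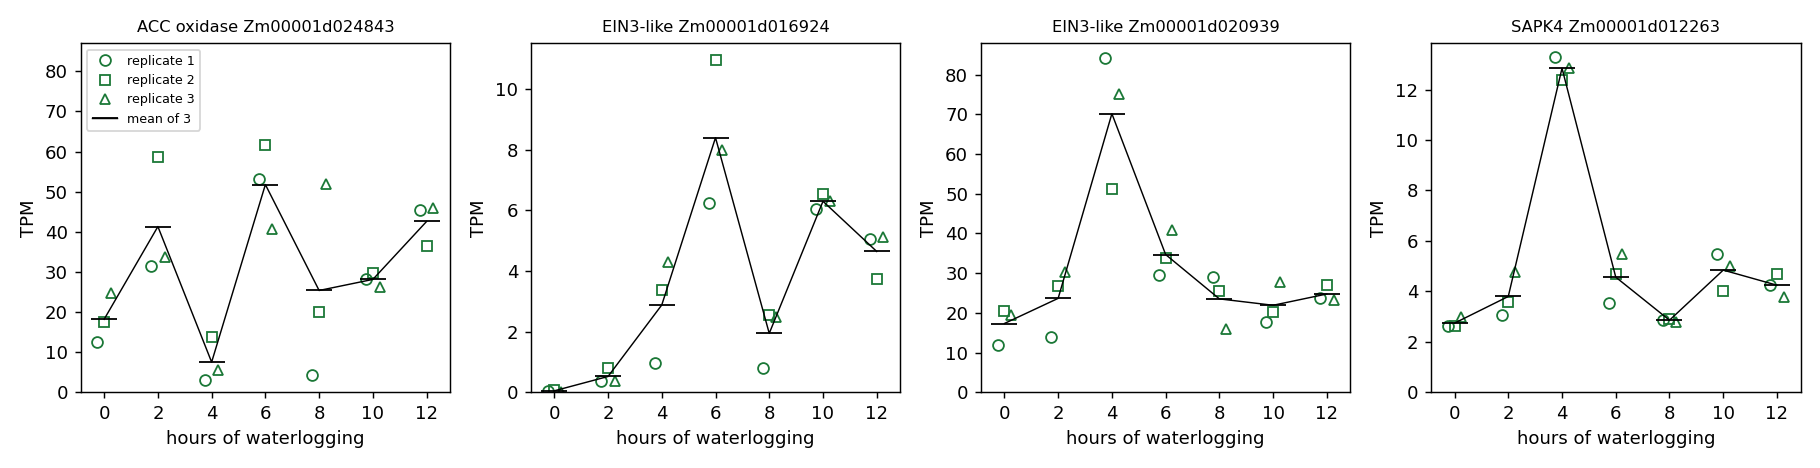
TPM of the ACC oxidase Zm00001d024843, the EIN3-like genes Zm00001d016924 and Zm00001d020939 and SAPK4 (Zm00001d012263) against hours of waterlogging, on linear axes from 0. Each symbol is 1 library and the bar is the mean of 3; the ACC oxidase falls at 4 h, where Zm00001d020939 and SAPK4 reach their highest levels.

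Of these 7 genes, counted here as other hormone genes with SAPK4 among them, none was called at WS_2h. There 4.18% of all PCgenes were called higher and 1.15% lower. At WS_4h, 3 were called higher and 1 lower, beside 19.3% and 23.7% of all PCgenes, and at WS_6h, 2 were called higher and none lower, beside 9.09% and 6.97%. At WS_8h, WS_10h and WS_12h, 1 was called higher (Zm00001d016924 each time) and none lower, beside 4.30%, 7.86% and 8.06% of all PCgenes called higher. The median log2 difference of the 7 was 0.53, 0.02, 0.92, 0.85, 0.47 and 0.79 in the order of the time points, and that of all PCgenes tested was between -0.08 and 0.00. From WS_4h on, the median of the 7 was each time the value of 1 of the 3 low ACC oxidases, whose separate values are uncertain. For the 3 genes with a mean above 5 TPM the median was 0.39, 1.89, 0.99, 0.05, 0.64 and 0.52. The median of the 7 at WS_8h rested on single libraries, being 0.06 without WS_8h replicate 3 and 1.54 without WS_8h replicate 1, and that at WS_10h was 0.29 without WS_0h replicate 1. The study named these genes on the same libraries, so their counts are no independent evidence of direction.

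Some genes followed NCED5 or the ACC synthase across the 21 libraries. Among PCgenes with a mean above 5 TPM, the 3 most like NCED5 by Pearson r of log2(TPM + 1) were Zm00001d002824 (r = 0.932), Zm00001d017422 (r = 0.924) and Zm00001d000117 (r = 0.919). The mean of Zm00001d017422 was 44.16 TPM at WS_0h, 1.11 TPM at WS_4h and 3.01 TPM at WS_12h. The libraries of a time point share their sampling, so these r values are a description over 7 time points rather than over 21 independent points.

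For the ACC synthase the 3 most alike were Zm00001d047402 (r = 0.951), Zm00001d020339 (r = 0.946) and Zm00001d005208 (r = 0.945). Zm00001d005208 had means of 16.11 TPM at WS_0h, 78.96 at WS_2h, 6 at WS_4h and 103.77 at WS_6h, the same alternation as the ACC synthase with wider swings. The ACC oxidase Zm00001d024843 came 8th of 22782 genes in likeness to the ACC synthase, at r = 0.93. Between NCED5 and the ACC synthase themselves r was 0.419.

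The lncRNA TCONS_00092298, which the study pairs with NCED5, was at 168.63, 201.41 and 161.83 TPM at WS_0h, 123.84, 107.73 and 98.04 at WS_2h and 24.17, 51.16 and 37.46 at WS_4h. At WS_12h its libraries held 11.69, 45.62 and 15.51 TPM. All libraries from WS_4h on were below those of WS_0h. The lncRNA values were normalized apart from those of PCgenes and differ in scale between libraries, by median-ratio factors of 0.0906 in WS_8h replicate 1 to 3.42 in WS_4h replicate 2. After division by these factors the lncRNA ranged from 107 to 136 at WS_0h, 60 to 93.4 at WS_2h and 8.45 to 15 at WS_4h. It ranged from 29.3 to 87.5 at WS_8h, overlapping WS_2h, and from 32.2 to 59.8 at WS_12h. The value of 87.5 was that of WS_8h replicate 1, the library with the smallest factor.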

How the data were processed

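Root tip RNA of 21 libraries was sequenced from stranded libraries. According to the methods and the submitters' processing notes, the PCgene TPM the authors deposited came from featureCounts on HISAT2 2.0.5 alignments to B73 RefGen_v4, after FastQC and Trimmomatic, and their lncRNA TPM from RSEM. TPM carries no depth, and the study's read totals were not used here. The 2 TPM tables were used, each column assigned by its label, and no authors' comparison column was used.

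The members and lists were chosen with earlier results of these data known. PCgenes with a mean above 1 TPM were fitted as log2(TPM + 1) with limma 3.58.1 (R 4.3.3), with 7 time point means, a shared spread, a mean-variance trend and Benjamini-Hochberg adjustment over all 22783 genes in each comparison. Whether the 3 libraries came from separate pots is only partly stated, so p-values measure the spread between these libraries. The difference of the 2 genes was tested with 100000 permutations, and single time points exactly. The fit was tested on simulated data with changes added only to genes at higher levels than NCED5, so levels as low as its own were not covered. Named were both members, the hormone genes the study names, the 3 most alike PCgenes above a mean of 5 TPM for each member, and the paired lncRNA. Lists by annotation could not be built: 0 of 2 members matched the RefSeq gene table, so positions and sequences are not given. Alternatives were a pseudocount of 0.1, a mean above 5 TPM, median-ratio rescaling, no trend, only the compared time points, the replicate block and leaving out each library; the same listed total and the counts of genes with the members' patterns were added after seeing the data.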

Additional observations from a re-analysis of the deposited data

Results flagged for a closer look

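Effects at neighbouring time points differed 5 times by a test of the difference itself, in limma with adjusted p as given in the report. On the log2(TPM + 1) scale, the effect in NCED5 against WS_0h changed by -1.46 from WS_2h to WS_4h and by 1.03 from WS_4h to WS_6h. That in the ACC synthase changed by -2.14 from WS_2h to WS_4h, by 2.22 from WS_4h to WS_6h and by -1.29 from WS_6h to WS_8h. The 2 effects compared share the WS_0h libraries, which cancel in the difference. With 3 libraries at each time point, single libraries were not tested as outliers.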

How the results depend on the processing

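Of 354 values of the 2 genes under alternatives, 335 kept their direction and their side of the threshold, 8 lost a call, 5 gained one and 6 changed sign; the cause was not tested. With 1 library left out, NCED5 ran from -1.38 to -0.55 at WS_2h, from 0.92 to 1.17 in the step from WS_4h to WS_6h and from -0.11 to 0.19 in the step from WS_10h to WS_12h. The ACC synthase ran from 0.99 to 1.54 at WS_2h, from -1.16 to -0.67 at WS_4h, from -0.23 to 0.48 at WS_8h and from -1.57 to -0.88 in the step from WS_6h to WS_8h. Fitting only the compared time points gave the ACC synthase 1.28 at WS_2h without a call. At the same listed total its WS_8h value was -0.01, that of SAPK4 was -0.01, and the NCED5 step to WS_6h was 0.98. A pseudocount of 0.1 moved NCED5 to -4.25 at WS_4h, -3.66 at WS_8h, -3.08 and 2.49 in the steps to WS_4h and WS_6h and -1.91, then called, in the step to WS_8h; NCED5 minus the ACC synthase became -3.26 at WS_4h and -3.72 at WS_8h, with F = 16.8 (permutation p = 0.00157).

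The sign also changed with the library left out for Zm00001d024852 at WS_4h (-0.05 to 0.08), for Zm00001d024843 at WS_8h (-0.83 to 0.84) and in its step to WS_10h (-0.19 to 1.48), and at WS_8h for Zm00001d024850 (-0.41 to 1.54) and Zm00001d024851 (-0.53 to 1.75). Of the other hormone genes, 1 (Zm00001d016924) was called higher at WS_2h with a pseudocount of 0.1 and 0 lower at WS_4h after median-ratio rescaling. At the same listed total 1 was higher at WS_6h, and with only the compared time points 2 at WS_12h. Above a mean of 5 TPM NCED5 and Zm00001d016924 have no value. Of the 3 tested, 1 was called higher at WS_6h and 0 at WS_8h, WS_10h and WS_12h. With 1 library left out there were 0 to 1 lower at WS_4h and 1 to 2 higher at WS_6h and WS_8h. Counts over all PCgenes moved by over 1.5 times above a mean of 5 TPM: 109 lower at WS_2h, 2800 higher at WS_4h, 967, 515, 762 and 735 lower at WS_6h, WS_8h, WS_10h and WS_12h, 2269 higher in the step to WS_4h, 1611 lower in that to WS_6h, 99 lower in that to WS_10h and 12488 by the F test (9527 without the WS_4h libraries), and at the same listed total 462 lower at WS_2h. With 1 library left out they ran from 173 to 346 lower at WS_2h, 221 to 800 higher in the step to WS_8h, and 358 to 870 higher and 94 to 171 lower in that to WS_10h. With a pseudocount of 0.1 the median of the 7 other hormone genes was 1.17, 1.54, 0.84 and 1.53 at WS_2h, WS_6h, WS_10h and WS_12h. The pattern counts ran from 47 to 186 as the ACC synthase, 55 at the same listed total, and 248 as NCED5 above a mean of 5 TPM, where fewer genes were tested.

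With the replicate block no call of the 2 genes changed (ACC synthase at WS_2h 1.28, adjusted p = 0.00581), but Zm00001d024843 became called in the step to WS_8h (-1.54, adjusted p = 0.0463). Deviations of same-numbered libraries had a mean r of 0.0521 (-0.258 to 0.619 over 63 pairs) and those of differently numbered libraries -0.0254 (-0.587 to 0.373 over 126 pairs). They were taken from the mean of each time point, so the second mean r is tied to the first. Since not every same-numbered pair correlated and no label ties the numbers to a shared source, the numbers were not taken to pair the libraries, although 12 of 21 libraries correlated best with their own number (a hint from the data, not the design). The exact tests of 3 against 3 cannot reach 0.05, so leaving out libraries says nothing of their stability.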

Other observations

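As a description chosen after seeing the data, 93 of the 22783 PCgenes tested (0.408%) were called in the same 4 comparisons and directions as the ACC synthase: higher at WS_2h, lower from WS_2h to WS_4h, higher from WS_4h to WS_6h and lower from WS_6h to WS_8h. Without WS_2h replicate 2 there were 47 such genes and without WS_2h replicate 1 there were 186, and at the same listed total 55. Called lower at WS_4h, WS_6h, WS_8h, WS_10h and WS_12h, as NCED5 was, were 443 PCgenes (1.94%), between 319 and 514 with 1 library left out.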
